A study of Mus musculus with 8 samples.

Results

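The elastic fibre genes of the mouse islet are described here: the 4 fibulins Fbln1, Fbln2, Efemp1 (fibulin-3) and Efemp2 (fibulin-4), Fbln5 itself, elastin (Eln), fibrillin-1 (Fbn1), the latent TGF-beta binding protein Ltbp4 and the cross-linking enzymes Lox and Loxl1. They were chosen by name as genes of elastic fibre assembly and found through the RefSeq accessions of the probes, which gave 10 genes with 16 probes among 22911 genes and 56605 probes on the array. The study compared islets of mice that lack Fbln5 in β-cells with islets of their controls. Total RNA of 150 islets per extraction was measured on 1 slide with 8 one-colour Agilent arrays, 4 per group, each given as a biological replicate. Control mice carried the floxed Fbln5 allele, in which loxP sites flank exons 1a and 1b, and no Cre was named for them. The βFbln5KO mice carried the same allele and an Ins1-Cre transgene, in which the mouse insulin 1 promoter drives Cre in β-cells, so other islet cells keep an intact Fbln5. All animals were male littermates, and the islets were taken at 11 weeks of age in both groups.

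Elastic fibres consist of a core of cross-linked elastin on a scaffold of fibrillin microfibrils. Fibulins are secreted glycoproteins with calcium-binding EGF-like repeats that bring the parts together: fibulin-5 binds tropoelastin, cell surface integrins and lysyl oxidase-like 1, and fibulin-4 brings lysyl oxidase to elastin. These genes are best known from fibroblasts, smooth muscle and blood vessels, and the islet holds such cells beside its endocrine cells.

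To show where transcription of the deleted gene begins, the RefSeq sequence before its first annotated start is printed (GRCm38.p6), together with those of Fbln1 and Efemp1, whose signals varied with Fbln5 across the arrays, and of Efemp2, whose signals did not. Each is given 5′ to 3′ on the gene's strand, and the stretch stops where the annotated gene begins. Fbln5 lies on the minus strand (chr12:101819120-101819369), and Fbln1 (chr15:85205699-85205948), Efemp1 (chr11:28852955-28853153) and Efemp2 (chr19:5473696-5473945) lie on the plus strand. Capitals mark matches on either strand to the GC box GGGCGG, the AP-1 motif TGANTCA or the CAGA motif CAGACA, and the TATA box TATAAA was searched too.
Fbln5: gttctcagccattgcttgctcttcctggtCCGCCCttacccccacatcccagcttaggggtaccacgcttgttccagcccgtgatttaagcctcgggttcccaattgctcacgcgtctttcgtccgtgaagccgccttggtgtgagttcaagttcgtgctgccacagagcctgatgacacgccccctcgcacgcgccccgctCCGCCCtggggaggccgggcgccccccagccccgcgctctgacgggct
Fbln1: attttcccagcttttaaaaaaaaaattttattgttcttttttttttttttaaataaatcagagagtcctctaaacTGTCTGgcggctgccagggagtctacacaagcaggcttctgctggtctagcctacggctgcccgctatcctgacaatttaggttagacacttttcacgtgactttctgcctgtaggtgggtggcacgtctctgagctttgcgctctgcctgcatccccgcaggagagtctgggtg
Efemp1: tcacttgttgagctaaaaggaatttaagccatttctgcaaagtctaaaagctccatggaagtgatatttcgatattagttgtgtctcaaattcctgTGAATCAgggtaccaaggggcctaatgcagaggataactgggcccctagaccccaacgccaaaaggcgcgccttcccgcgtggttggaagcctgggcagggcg
Efemp2: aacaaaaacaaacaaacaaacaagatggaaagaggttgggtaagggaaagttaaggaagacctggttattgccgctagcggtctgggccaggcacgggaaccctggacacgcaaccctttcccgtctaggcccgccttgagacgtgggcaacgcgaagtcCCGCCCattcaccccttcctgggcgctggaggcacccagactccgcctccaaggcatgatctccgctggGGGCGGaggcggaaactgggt
Fbln5 holds 2 GC boxes in this stretch, Fbln1 holds 1 CAGA motif, Efemp1 holds 1 AP-1 motif and Efemp2 holds 2 GC boxes, so no printed stretch has matches to more than 1 motif. Fbln5 has 2 annotated starts that lie 635 bases apart, and the 250 bases before the inner start hold 1 CAGA motif and no GC box. Windows of this length were read for 7 of the 10 genes (13 windows, some of them overlapping). Eln and Loxl1 have no window, and Lox was not read. A GC box stood in 11 of the 13 windows and in 32.7% of the 32851 windows of all genes. A CAGA motif stood in 3 of 13 (17.1% of all windows), an AP-1 motif in 1 of 13 (6.75%) and a TATA box in 0 of 13 (12.4%). A match describes the letters and does not show that a factor binds.

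Each value below is a log2 signal: the processed intensity of a probe on the log2 scale minus the array's own 75th percentile, so a value below 0 lies under that percentile. Levels of different probes cannot be compared on this scale. By the flag of the scanner software, control arrays had 56.6% to 58.8% of their spots well above background, βFbln5KO arrays 1 to 3 had 52.6% to 53.6%, and the array labelled βFbln5KO replicate 4 had 56.6%. A probe with that flag is called detected below. The lowest detected log2 signal was −5.01 to −4.79 in control, −4.35 to −4.19 on βFbln5KO arrays 1 to 3 and −4.70 on array 4. Over the probes detected on all 8 arrays, pairs of arrays correlated at Pearson r of 0.983 to 0.994, and no pair was identical. Both genotypes had a row of the slide to themselves, so the row and the genotype cannot be told apart, and precision is bounded by 4 arrays per group. The tissue label was borne out by the islet hormones and β-cell genes, since all 7 β-cell markers (Ins1, Ins2, Iapp, Slc2a2, Mafa, Ucn3 and Nkx6-1) were well above background on all 8 arrays, at a mean log2 signal of 5.73 to 5.82 (control) and 5.65 to 5.78 (βFbln5KO).

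Fbln5, the deleted gene, was read by 1 probe (A_55_P2088615, gene on chromosome 12 from 101746565 to 101819119, GRCm38). The log2 signals of control arrays 1 to 4 were −1.70, −1.32, −2.05 and −1.83, and those of βFbln5KO arrays 1 to 4 were −2.74, −2.40, −2.38 and −1.37. Arrays 1 to 3 of βFbln5KO lay below every control array, and the array labelled βFbln5KO replicate 4 lay within the control range. Control islets averaged −1.72 ± 0.31 (SD, n = 4) and βFbln5KO islets −2.22 ± 0.59 (SD, n = 4), a log2 difference of −0.50 (SE 0.29, 95% interval −1.15 to 0.15), or 1.42-fold lower, which did not pass the test (limma, adjusted p = 0.342). The exact two-sided permutation test over the 8 arrays gave p = 0.171, where 0.0286 is the smallest p it allows. Without replicate 4 the log2 difference was −0.78, or 1.72-fold lower (limma, unadjusted p = 0.0043, adjusted p = 0.0227). In that setting 20.4% of all probes passed, most of them detected on no array, which loosens the adjusted p. Where the probe lies against exons 1a and 1b is not given in the sources used here, so its level does not by itself check the deletion. In Slc38a1, an amino acid transporter gene with the smallest p of the series, replicate 4 stood with its group: it was at 2.40, the other βFbln5KO arrays were between 2.40 and 2.51, and no control array was above −2.56. Fewer cells of a type and less RNA per cell cannot be told apart in such bulk islet RNA, for Fbln5 or for any gene below.

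None of the 10 elastic fibre genes, each taken by its brightest probe, differed between βFbln5KO and control islets at an adjusted p under 0.05 in limma, and 0.0106% of all probes did. At an unadjusted p under 0.05 the count was also 0 of 10, against 24.7% of all probes and 6.28% of the probes detected on all 8 arrays. The share over all probes differed between the processing settings. In the main setting 11730 probes were higher and 2246 lower, against 301 and 3222 with normexp and 1033 and 2143 with quantile normalization. The counts were 516 and 2020 in the deposited table, and 227 and 1443 among the 26612 probes detected on all 8 arrays. Without replicate 4 of βFbln5KO, 4 genes had an adjusted p under 0.05: Fbln5, Fbln2 and Efemp1 were lower and Lox, which was then dim on all 7 arrays, was higher. Of all probes, 20.4% passed in that setting, 19.8% as higher and 0.597% as lower, and 10550 of these 11544 probes were detected on none of the 8 arrays. So many passing probes loosen the adjustment over all probes. An unadjusted p of 0.0043 for Fbln5 gave an adjusted p of 0.0227 there (limma). Over all 8 arrays a smaller unadjusted p of 0.0029, for the undetected Hmcn1 of the wider list, gave 0.073 (limma). Among the probes detected on all 8 arrays, 0.827% passed without replicate 4, and the 7 such members then gave 2 calls, Fbln5 and Fbln2. The log2 difference over all 8 arrays was below 0 in 8 of 10 genes and in 25161 of all 56605 probes. Among those detected on all 8 arrays it was below 0 in 6 of 7 members and in 15735 of 26612 probes. The median over the 10 genes was −0.30, beside a median of 0.029 over all probes and −0.025 over those well above background on all 8 arrays.

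**Figure D1:**
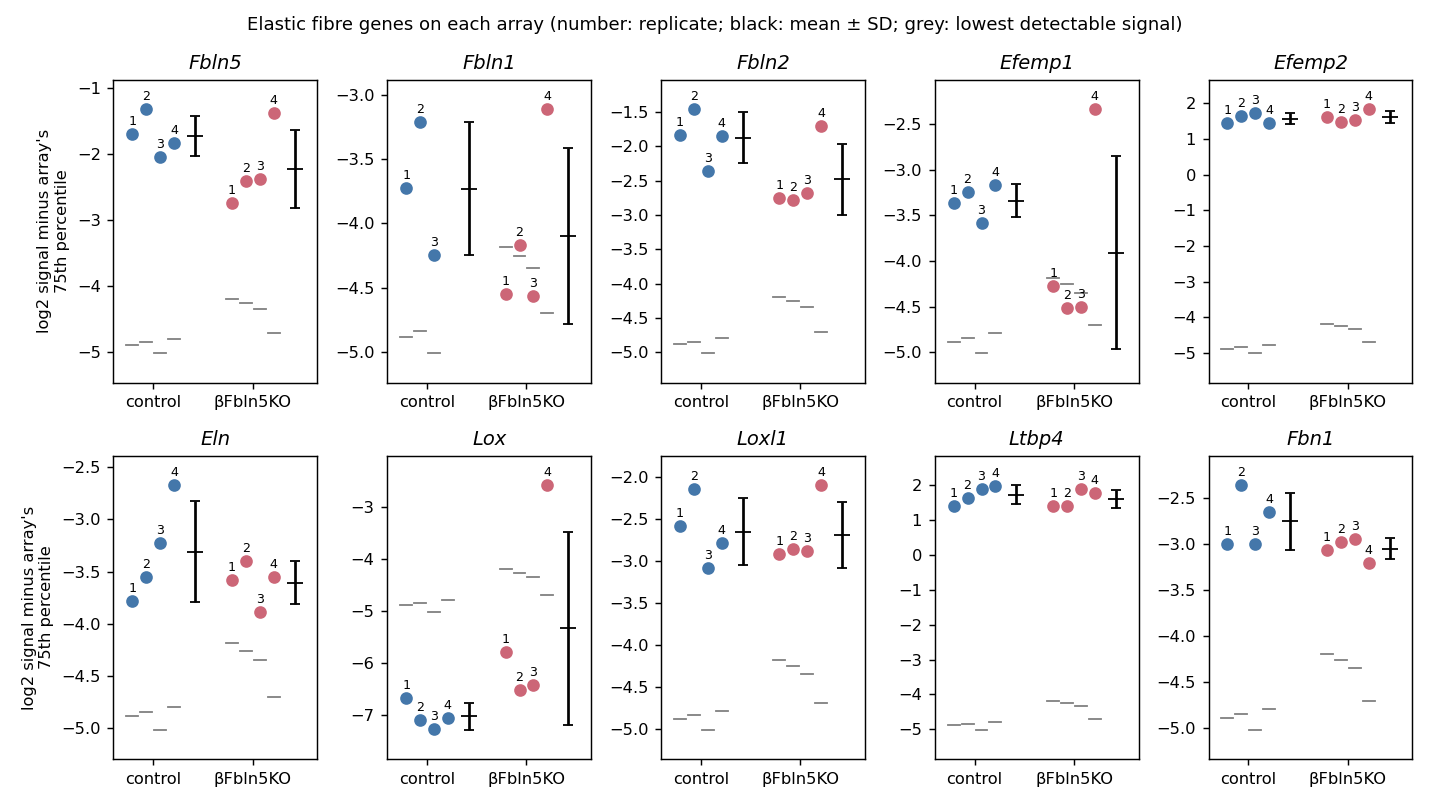
Log2 signal (minus the array's 75th percentile) of the brightest probe of each elastic fibre gene on each array, with the replicate number above each point, blue for control and red for βFbln5KO, the mean and SD in black and the array's lowest well-above-background signal as a grey line; the vertical scales differ between genes. Fbln5, Fbln2 and Efemp1 were below every control on βFbln5KO arrays 1 to 3 and high on array 4, while the groups overlapped for Efemp2 and Ltbp4, and the Fbln1 value of control array 4, marked as an outlier, is left out.

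The fibulins closest to Fbln5 in their array profile were Fbln2, Fbln1 and Efemp1. Fbln2, a large fibulin that binds fibrillin and elastin and can stand beside fibulin-5 in vessel walls, had log2 signals of −1.83, −1.45, −2.36 and −1.85 on control arrays 1 to 4 and of −2.75, −2.78, −2.68 and −1.70 on βFbln5KO arrays 1 to 4. As for Fbln5, βFbln5KO arrays 1 to 3 lay below every control and array 4 lay among the controls. The log2 difference was −0.61 (SE 0.28, 95% interval −1.24 to 0.027; 1.52-fold lower) and did not pass the test (limma, adjusted p = 0.225; exact permutation p = 0.114). Without replicate 4 it was −0.87, or 1.82-fold lower (limma, unadjusted p = 0.0037, adjusted p = 0.0201, with the loosened adjustment named above).

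Efemp1 encodes fibulin-3, a fibulin known from fascia and from Bruch's membrane of the eye. The control arrays read −3.36, −3.24, −3.58 and −3.17 with its brighter probe (A_51_P337412), and βFbln5KO arrays 1 to 4 read −4.28, −4.52, −4.50 and −2.33. The probe was well above background on all 4 control arrays but on only 1 βFbln5KO array, replicate 4, which was above every control. The fitted log2 difference was −0.57 (SE 0.47, 95% interval −1.64 to 0.50; limma, adjusted p = 0.548). Without replicate 4 the remaining βFbln5KO arrays were all dim. The fitted log2 difference was then −1.09 (limma, adjusted p = 0.00699), which is no measured fold. As a bound, which was not tested itself, Efemp1 was at least 1.90-fold lower than in control. This bound sets the control mean against, on each array, the higher of the lowest signal well above background and the probe's own. A second probe (A_55_P2596096) was not well above background on any array.

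Fbln1, a fibulin of basement membranes and elastic fibres, had log2 signals of −3.73, −3.21 and −4.25 on control arrays 1 to 3, and its value on control array 4 was marked as an outlier by the scanner software and dropped from the fit. The βFbln5KO arrays read −4.55, −4.17, −4.56 and −3.11, and only replicate 4, the highest of the 7 values kept, was well above background among them. Here βFbln5KO arrays 1 and 3 lay below the controls and array 2 lay within their range. This gave a log2 difference of −0.37 (SE 0.43, 95% interval −1.37 to 0.63; limma, adjusted p = 0.699), and it was −1.51 with the marked value kept (limma, adjusted p = 0.446). Without replicate 4 it was −0.70 (SE 0.35) and did not pass either (limma, adjusted p = 0.281), and control array 3 lay below βFbln5KO array 2. With 1 array left out at a time, the log2 difference of Fbln1 ranged from −0.70 to −0.11.

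Efemp2 encodes fibulin-4, without which elastin is poorly cross-linked, and its brighter probe (A_51_P160544) was above the 75th percentile on every array. The log2 signals were 1.44, 1.64, 1.74 and 1.45 on the control arrays and 1.62, 1.49, 1.52 and 1.84 on the βFbln5KO arrays. The groups overlapped over nearly their whole range, although replicate 4 of βFbln5KO was again the highest. The difference between the groups was 0.050 (SE 0.098; limma, adjusted p = 0.833), and its 95% interval of −0.17 to 0.27 holds differences in either direction. A second probe (A_66_P101780) gave −0.25 (SE 0.33; limma, adjusted p = 0.729). It was well above background on all 4 control arrays and, among the βFbln5KO arrays, which read −4.05, −4.25, −4.27 and −3.57, on replicate 4 alone, the detection pattern of Efemp1 and Fbln1. Without replicate 4 its log2 difference was −0.41 (SE 0.35; limma, adjusted p = 0.575).

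The fibre proteins themselves did not share the pattern of Fbln5. Eln, which encodes tropoelastin, the soluble precursor of elastin, read −3.78, −3.56, −3.22 and −2.67 on the control arrays and −3.58, −3.39, −3.89 and −3.55 on the βFbln5KO arrays with its brighter probe (A_52_P609972). Control array 4 stood highest and the other 7 arrays lay between −3.89 and −3.22, with no high value on βFbln5KO replicate 4. Between the genotypes Eln had a log2 difference of −0.30 (SE 0.26, 95% interval −0.89 to 0.30; limma, adjusted p = 0.581), and it was −0.085 without control replicate 4. The other Eln probe was not well above background on any array.

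Fbn1 encodes fibrillin-1, the main protein of the microfibril scaffold. Its brighter probe (A_55_P2931427) read −2.99, −2.36, −3.00 and −2.64 on the control arrays and −3.06, −2.97, −2.94 and −3.20 on the βFbln5KO arrays. The βFbln5KO values lay at or near the low end of the control range, and replicate 4 was the lowest of all arrays, the opposite of its place for Fbln5. This probe had a log2 difference of −0.30 (SE 0.18, 95% interval −0.71 to 0.11; limma, adjusted p = 0.379). The second probe (A_51_P467224) differed in sign, with 0.35 (SE 0.60; limma, adjusted p = 0.805), with βFbln5KO array 1 at −1.27 where the other 7 arrays lay between −4.34 and −3.46.

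Ltbp4 encodes a latent TGF-beta binding protein that helps to deposit fibulin-5 onto microfibrils. It read 1.40, 1.64, 1.91 and 1.99 on the control arrays and 1.39, 1.39, 1.89 and 1.77 on the βFbln5KO arrays, so the groups overlapped. The log2 difference was −0.12 (SE 0.16, 95% interval −0.48 to 0.23; limma, adjusted p = 0.729), and the second probe gave −0.16 (SE 0.14; limma, adjusted p = 0.594).

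The cross-linking enzymes differed from each other. Loxl1, the lysyl oxidase-like enzyme that fibulin-5 tethers, read −2.59, −2.15, −3.09 and −2.79 on the control arrays and −2.92, −2.86, −2.89 and −2.11 on the βFbln5KO arrays. Arrays 1 to 3 of βFbln5KO lay inside the control range and replicate 4 lay just above it, at about the level of control array 2. For Loxl1 this gave a log2 difference of −0.036 (SE 0.25, 95% interval −0.61 to 0.54; limma, adjusted p = 0.958). Lox, the founding lysyl oxidase, was dim, that is, not well above background, on the control arrays (−6.67, −7.11, −7.28 and −7.06) and on βFbln5KO arrays 1 to 3 (−5.80, −6.53 and −6.42), and it was well above background on replicate 4 alone, at −2.58. Its fitted log2 difference of 1.70 (limma, adjusted p = 0.232) rests on 4 βFbln5KO arrays that all lay above every control, as for 18.8% of all probes (exact two-sided permutation p = 0.0286, the smallest possible). It is no fold, and no bound above 1 could be given because the mean of the βFbln5KO arrays, −5.33, lay below the lowest detectable signals of the control arrays. The second Lox probe was not well above background on any array, replicate 4 included.

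**Figure D2:**
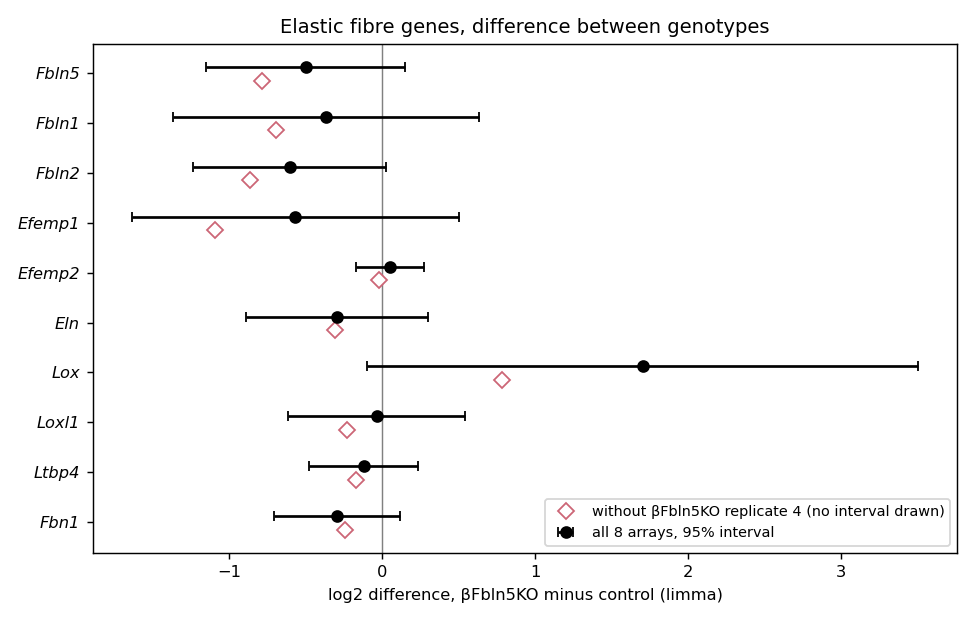
Log2 difference between βFbln5KO and control islets (limma, βFbln5KO minus control) for the brightest probe of each elastic fibre gene, as points with 95% intervals over all 8 arrays and as open diamonds without the array labelled βFbln5KO replicate 4. All 10 intervals span 0, the diamonds of Fbln5, Fbln1, Fbln2 and Efemp1 lie further below 0, and Lox rests on signals that were dim on 7 of 8 arrays.

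Fbln5, Fbln2 and Efemp1 thus shared 1 arrangement of the arrays, with βFbln5KO arrays 1 to 3 below every control and array 4 not, a pattern picked after the values were seen. It held for 3 of 10 members by the brightest probe and for 1.44% of all probes, and for 2 of the 7 members detected on all 8 arrays against 1.42% of such probes. Replicate 4 was the highest βFbln5KO array for 7 of 10 members (Fbln5, Fbln1, Fbln2, Efemp1, Efemp2, Lox and Loxl1), against 20.1% of all probes, and for 4 of the 7 members detected on all 8 arrays, against 24.7% of such probes. It exceeded the mean of βFbln5KO arrays 1 to 3 by a log2 difference of 1.13 for Fbln5 (2.19-fold), 1.04 for Fbln2, 1.32 for Fbln1, 2.10 for Efemp1 and 0.78 for Loxl1. For Fbln1 and Efemp1 these are differences from signals that were not well above background on arrays 1 to 3, and no measured fold. The same step was 0.30 for Efemp2, 0.21 for Ltbp4, 0.067 for Eln and −0.21 for Fbn1.

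Across the 8 arrays the Fbln5 signal ran parallel to that of Fbln2 (Pearson r = 0.96, Spearman rho = 0.98) and Loxl1 (r = 0.82, rho = 0.81), to Efemp1 (r = 0.88, rho = 0.81) and, over 7 arrays, to Fbln1 (r = 0.95, rho = 0.79). These are descriptions over arrays that share a slide and a scaling. With each group's mean subtracted, r was 0.95 for Fbln2, 0.94 for Loxl1, 0.86 for Efemp1 and 0.96 for Fbln1, so the likeness was present within the groups too. Without the arrays farthest from the median of Fbln5, βFbln5KO array 1 and control array 2, it was 0.96 for Fbln2, 0.80 for Loxl1 and 0.98 for Efemp1, each over 6 arrays. Low values belonged to Fbn1 (r = 0.38), Efemp2 (0.31), Ltbp4 (0.26) and Eln (0.093), which with each group's mean subtracted had 0.11, 0.48, 0.15 and −0.16. Lox, dim on 7 of the 8 arrays, had r = 0.24 and rho = −0.29 over all arrays, but r = 0.81 with each group's mean subtracted and 0.63 without the same 2 arrays. Among 13649 genes well above background on all 8 arrays, Fbln2 ranked 2 by r with Fbln5 and Loxl1 ranked 74. The other genes of the first 5 were Nr2f2, a nuclear receptor of venous and mesenchymal cells (r = 0.97), Crispld2, a secreted protein of mesenchyme (0.95), Zeb2, a transcription factor of epithelial-mesenchymal transition (0.95), and Syn3, a synapsin (0.94). These 4 were chosen for their likeness to Fbln5 on the same 8 arrays, so no test between the genotypes is given for them.

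Markers of mesenchymal cells, which make many elastic fibre proteins, were set beside these values. Of the 7 markers (Col1a1, Col3a1, Col1a2, Pdgfra, Pdgfrb, Lum and Dcn), 6 were well above background on all 8 arrays, Pdgfra was so on 2, and 0 differed between the groups at an unadjusted limma p under 0.05. Their mean log2 signal was −0.32, 0.32, −0.86 and −0.54 on the control arrays and −0.52, −0.54, −0.76 and −0.10 on the βFbln5KO arrays. Control array 2 and βFbln5KO replicate 4 were the highest of their groups and control array 3 and βFbln5KO array 3 the lowest, and control arrays 2 and 3 were also the highest and the lowest control for Fbln5, Fbln2 and Loxl1, and for Fbln1 over the 3 control values kept. Among βFbln5KO arrays 1 to 3 the orders did not match, since array 3, the lowest for the markers, was the highest of the 3 for Fbln5 and Fbln2. Lum and Dcn, small leucine-rich proteoglycans of fibroblasts, were higher on replicate 4 than on the mean of βFbln5KO arrays 1 to 3 by log2 differences of 0.74 and 0.80, while Col1a1 on replicate 4, at −0.16, lay among the other βFbln5KO arrays (−0.42 to −0.10). On arrays 1 to 3 of βFbln5KO, in contrast, Dcn read 1.44, 0.98 and 0.87, all within its control range of 0.67 to 2.09, and Lum stayed within its own as well, where Fbln5 and Fbln2 were below theirs. The mean over 8 endothelial markers, led by Pecam1 and Cdh5, was 1.21 to 1.27 in control and 1.20 to 1.27 in βFbln5KO islets, and none of the 8 was called. The mean over 6 acinar markers, led by Cpa1 and Prss2, was 6.93 to 8.24 in control and read 7.07, 6.16, 6.24 and 7.65 on βFbln5KO arrays 1 to 4. All 6 had a log2 difference below 0 (−1.22 to −0.46), and 1, the elastase gene Cela1, was lower at an unadjusted p under 0.05 (−0.46; limma, adjusted p = 0.129). The acinar marker Ctrb1 had the arrangement of Fbln5, with βFbln5KO arrays 1 to 3 below every control and replicate 4 not. The part of these cells in the Fbln5 and fibulin values was not tested.

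**Figure D3:**
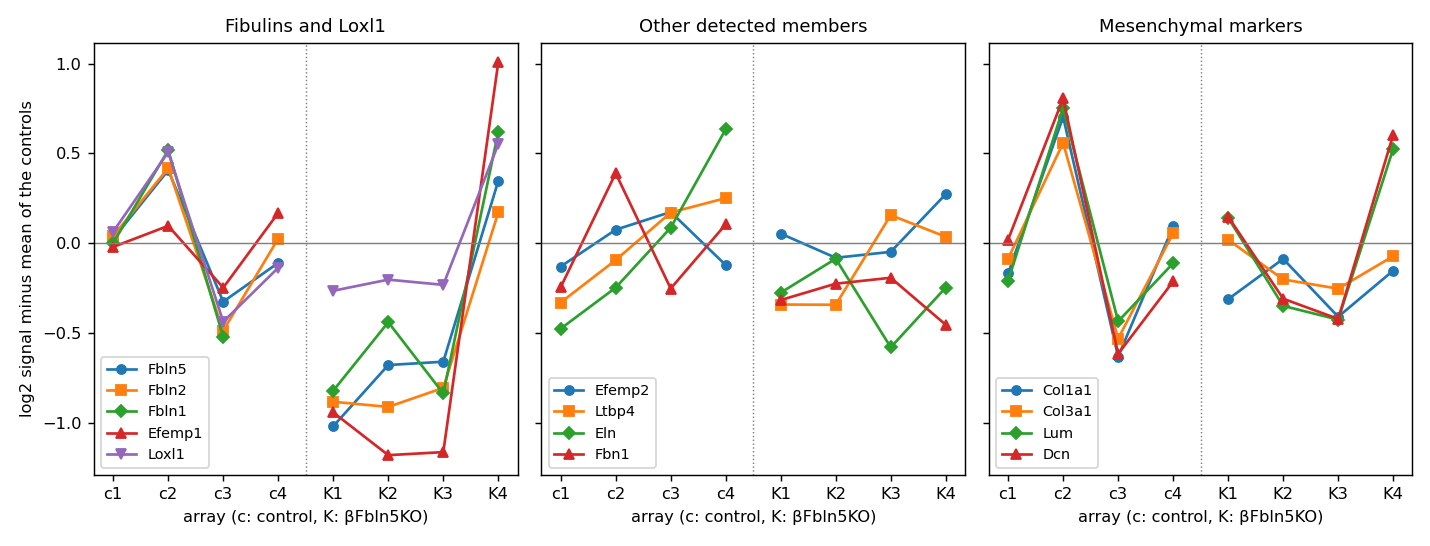
Log2 signal of single genes on each array minus the mean of the control arrays, for control (c1 to c4) and βFbln5KO (K1 to K4), with lines that only link the points of a gene and imply no order. Fbln5, Fbln2, Fbln1 and Loxl1 have their highest plotted value of each group on control array 2 and on βFbln5KO array 4, as do Lum and Dcn, Efemp1 is highest on control array 4 and βFbln5KO array 4, and Efemp2, Ltbp4, Eln and Fbn1 follow no common course.

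Beyond these members, 40 other genes of elastic fibre biology were listed, and 39 were measured. At an unadjusted p under 0.05 in limma 4 of them were higher in βFbln5KO islets and 1 was lower, and 0 passed at an adjusted p, beside 20.7% of all probes higher and 3.97% lower, a balance that is the reverse among detected probes and with normexp (counts above). The 4 higher genes, Hmcn1, Mmp7, Mmp9 and Mmrn1, were named after their values were seen, and none was well above background on any array. The probes that are dim on every array (18855) had a median log2 difference of 0.47. Of the 23 listed genes detected on all 8 arrays, 0 were called at an unadjusted p under 0.05, with a median log2 difference of −0.031, against 6.28% of such probes.

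Adamts10, a secreted protease-like protein that binds fibrillin-1 and promotes microfibrils, was the 1 lower gene. Its log2 signals were −4.10, −2.18, −3.72 and −2.04 on the control arrays and −4.73, −5.39, −4.74 and −4.36 on the βFbln5KO arrays. All 4 βFbln5KO arrays lay below every control, an arrangement found for 2.66% of all probes, and replicate 4 alone among them was well above background. The fitted log2 difference was −1.80 (SE 0.50, 95% interval −2.94 to −0.66; limma, unadjusted p = 0.0062, adjusted p = 0.073). The control arrays themselves spanned −4.10 to −2.04. Its spot lay in row 382 of 384, and of the 2351 probes in the last 16 rows 6.08% were lower at an unadjusted p under 0.05. The part of spot position was not tested.

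By role, with calls at an unadjusted p under 0.05 in limma (shares of all probes as given above), the integrins and partners that bind fibulin-5 gave 0 calls among 8 genes, with log2 differences from −0.22 to 0.0014. Itgav, the alpha-v chain of the RGD receptors, had a difference of −0.037 (SE 0.055), Itgb3, the beta-3 chain, of 0.0014 (SE 0.11) and Sod3, the extracellular superoxide dismutase that fibulin-5 binds, of −0.047 (SE 0.16). Among the 3 latent TGF-beta binding proteins other than Ltbp4 there were 0 calls, and Ltbp2, which binds fibulin-5, differed by −0.46 (SE 0.22; limma, adjusted p = 0.237). The 12 microfibril proteins gave 1 lower call, Adamts10, and 1 higher, the dim Mmrn1, with differences of −0.017 (SE 0.18) for Emilin1 and −0.031 (SE 0.072) for Mfap4. The 3 other lysyl oxidase-like enzymes gave 0 calls, and Loxl2, a collagen IV cross-linker, differed by 0.044 (SE 0.099). Of 11 elastin-degrading enzymes and their inhibitors 2 dim genes, Mmp7 and Mmp9, were higher and 0 were lower. Timp2, an inhibitor of matrix metalloproteinases, differed by −0.24 (SE 0.16; limma, adjusted p = 0.422) and had the arrangement of Fbln5, at 2.34, 2.68 and 2.59 on βFbln5KO arrays 1 to 3, 3.03 on replicate 4 and 2.69 to 3.18 in control.

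**Figure D4:**
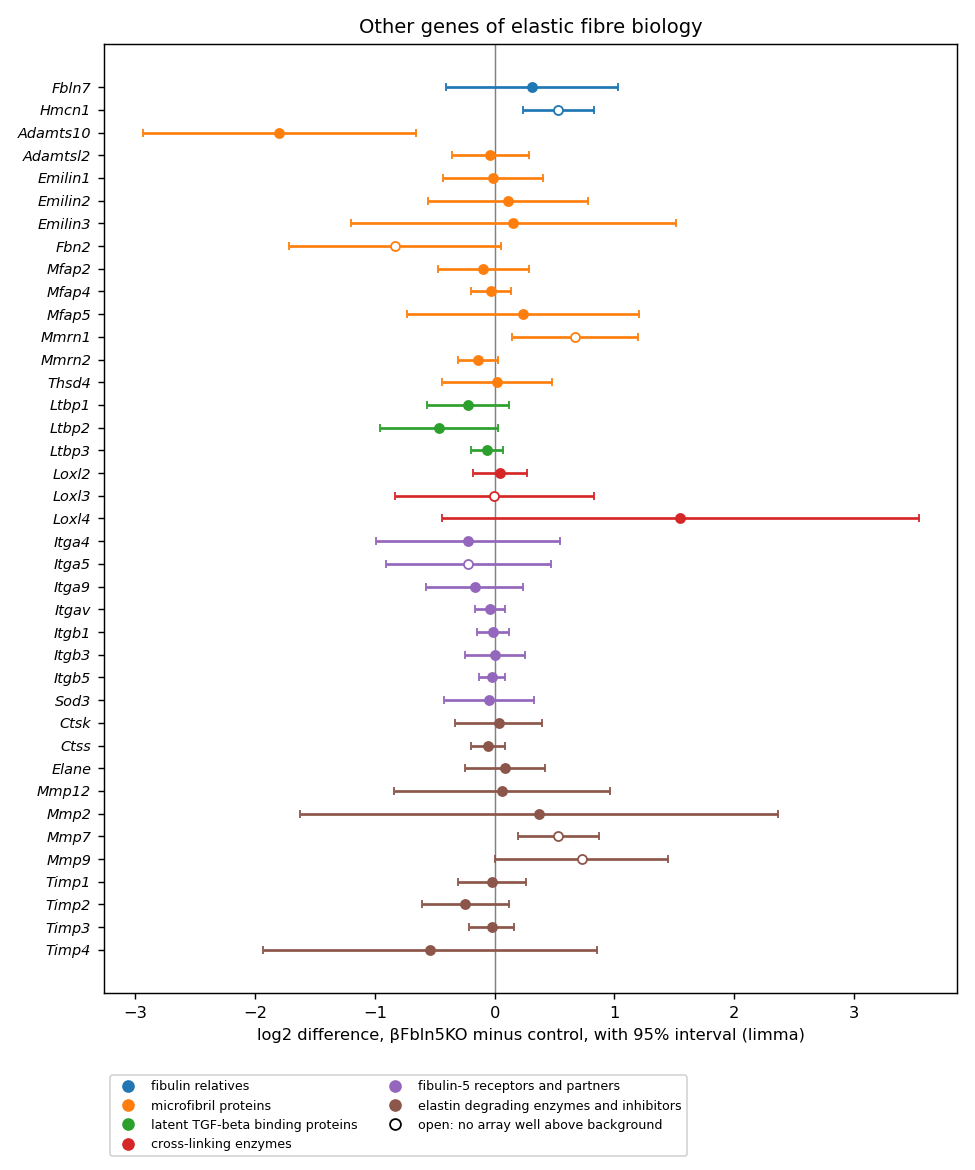
Log2 difference between βFbln5KO and control islets (limma, βFbln5KO minus control) with 95% intervals for 39 other genes of elastic fibre biology, coloured by role, with open points where no array was well above background. Adamts10 lies furthest below 0, and the 4 intervals wholly above 0 belong to open points (Hmcn1, Mmrn1, Mmp7 and Mmp9). The integrin chains Itgav, Itgb1, Itgb3 and Itgb5 lie close to 0, while Itga4, Itga5 and Itga9 lie further below it with wider intervals.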

How the data were processed

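Islet RNA of 4 control and 4 βFbln5KO samples was measured on Agilent one-colour mouse arrays. The authors deposited, per array, the processed signal of each spot, an intensity that is background-subtracted and spatially detrended by Agilent Feature Extraction 11.0.1.1 (per the submitters' processing notes), without scaling between arrays, together with flags, and a table whose deposited values are the ratio of each signal to 1 number per array (99.2% of its values within 0.01%). The array design names an older genome build, and coordinates here are those of RefSeq GRCm38.p6.

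Intensities were put on the log2 scale, each array's 75th percentile was subtracted, 1689 outlier-marked values (0.356%) were left out and spots of a probe were averaged. Probes were named through RefSeq accessions (32994 of 56605). All 8 arrays were fitted with limma 3.58.1 (eBayes with trend) in R 4.3.3. P-values were adjusted over all probes by Benjamini-Hochberg, with a threshold of 0.05, and exact two-sided permutation tests were run beside it. The code was tested on simulated data. A gene is given by its brightest probe. Named were all members and their probes, listed genes of the wider pathway with an unadjusted p under 0.05 that were detected on at least 1 array, the 5 genes most like Fbln5 and the leading cell type markers; other names were added as examples of their role. Members and lists were chosen with earlier results of these data known. Alternative settings were normexp (offset 50, on median signals), quantile normalization, a filter to probes detected on 4 arrays, a common floor on dim signals, other eBayes settings, outlier spots kept, the methods' t-test, the deposited table, the mean of a gene's probes, a block for the replicate number, and leaving out 1 array at a time. The authors' analysis used GeneSpring, and other experiments of the study were not analysed here.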

Additional observations from a re-analysis of the deposited data

Results flagged for a closer look

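In 33 groups of 4 arrays, each holding 1 probe of a member or the Adamts10 probe within 1 genotype, 4 held a value that stood far from the other 3 arrays. All 4 were the array labelled βFbln5KO replicate 4, where it was the highest. Chance marks about 1 in 20 groups. Fbln2 read −1.70 there and −2.78 to −2.68 on the other βFbln5KO arrays. Efemp1 read −2.33 against −4.52 to −4.28, Loxl1 read −2.11 against −2.92 to −2.86, and the dim second probe of Lox read −5.91 against −6.45 to −6.39. Of all probes, 2.72% had replicate 4 as such a high value, and 1.15% of those well above background on all 8 arrays did.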

How the results depend on the processing

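The log2 difference of Fbln5 stayed below 0 in all 18 alternatives, and it passed the adjusted threshold of limma only without βFbln5KO replicate 4 (range with 1 array left out −0.78 to −0.33). Fbln1, Fbln2, Efemp1, Eln and Ltbp4 stayed below 0 and Lox above 0 in every alternative run, although Efemp1 shrank to −0.036 and Lox to 0.40, with the mean of the probes and with a common floor respectively. Efemp2 turned to −0.10 with the mean of its probes, and lay between −0.025 and 0.11 with 1 array left out. Loxl1 turned to 0.010 with quantile normalization, and lay between −0.23 and 0.13 with 1 array left out, above 0 without control replicate 2 (0.13) or without βFbln5KO replicate 1 (0.040), 2 (0.019) or 3 (0.029). Fbn1 turned to 0.029 with the mean of its probes. Of the 10 members, 0 to 4 passed the adjusted and 0 to 4 the unadjusted threshold with 1 array left out, with 4 only without βFbln5KO replicate 4. The unadjusted count, 0 over all arrays, was 1 with normexp and 1 with robust eBayes, Fbln2 in both. Over all probes the adjusted count of 6 became 10 with quantile normalization, 3 with a common floor, 6578 without trend, 5422 with robust eBayes, 87 with the methods' t-test and 5 to 11544 with 1 array left out, the highest without βFbln5KO replicate 4. For the wider list, the adjusted count of 0 became 2 without trend, 3 with robust eBayes and 0 to 4 with 1 array left out. Its unadjusted count of 5 became 1 with normexp, 1 with quantile normalization, 1 with the filter on dim probes, 1 with the deposited table, 0 with a common floor and 4 to 7 with 1 array left out. Over all probes the unadjusted split was 350 higher and 1676 lower with a common floor and 227 and 1968 with the filter on dim probes. The cause of these shifts was not tested.

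The replicate numbers did not pair the arrays: same-numbered arrays correlated between −0.22 and 0.29 in their deviations from the group means, and 2 of 4 pairs exceeded 0.1. With the replicate number as a block, Fbln5 gave −0.50 (limma, adjusted p = 0.339), 1 of 10 members, the dim Lox, passed the unadjusted threshold, and 2 probes in all passed the adjusted one.

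Signal over background limits Efemp1, Fbln1, Lox and Adamts10, which were dim on at least 3 βFbln5KO arrays. The higher detection limit of βFbln5KO arrays 1 to 3 bears on the same genes.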
